A study of Mus musculus with 2 samples.

Results

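The 40 genes described here encode the enzymes, carriers and regulators of fatty acid oxidation (15 genes), fatty acid synthesis (11 genes) and cholesterol synthesis (14 genes). They were chosen by symbol from a list of these pathways, with no measured value in the rule, and all 40 were found among the 31253 features of the deposited tables. The values came from 2 single-cell RNA-seq libraries of dissected infarct tissue of mouse brain, 3 days after transient occlusion of the middle cerebral artery (tMCAO), a model of ischaemic stroke with reperfusion. The first library, called flox in its label and WT in the design text, is the control. The second, called cKO, came from mice with a conditional knockout of Hilpda, whose product binds lipid droplets and inhibits adipose triglyceride lipase. For the Cre driver, the deleted exons, strain, age, sex and number of animals, the sources used here give nothing. Tissue was dissociated with collagenase and the cells were captured on the BD Rhapsody system, which counts molecules by unique molecular identifiers (UMIs) at the 3′ end of transcripts. The comparison addresses how cells of the infarct differ when Hilpda is conditionally deleted.

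Fatty acids enter mitochondria as carnitine esters, made by Cpt1a, carried by Slc25a20 and released by Cpt2, and are then shortened stepwise by acyl-CoA dehydrogenases, the trifunctional protein and thiolases. Fatty acid synthesis runs the other way, from citrate through Acly, Acaca and Fasn to palmitate, which elongases (Elovl genes) lengthen and desaturases (Scd and Fads genes) furnish with double bonds. Cholesterol is built from acetyl-CoA through mevalonate and squalene, and in the brain it is made locally, since plasma lipoproteins do not cross the blood-brain barrier; myelinating oligodendrocytes and astrocytes are known as its main producers. Srebf1 and Srebf2 encode the transcription factors that drive fatty acid and cholesterol genes, and Insig1 holds them inactive when sterols are plentiful.

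There were 8593 barcodes (67864602 UMIs) in the flox library and 7382 (70665440 UMIs) in the cKO library. After filtering, 8065 and 6984 cells were kept, at a median of 6997 and 8741 UMIs, and 49 of the kept barcodes occurred in both libraries. Cells were grouped into 27 clusters, of which 25 were named from marker genes as 16 classes, and 9.15% of flox and 6.89% of cKO cells stayed unnamed. A gating of each cell by its own marker UMIs, as the rule for these genes words it, put 75.9% of 12591 cells in the same class. Clusters 2 and 7 of the microglia-like class had 0 of its markers among their top 10 genes, although 9 and 10 of the 10 markers were detected in them. The ependymal cell-like cluster (40 flox and 30 cKO cells) had 2 ependymal and 2 astrocyte markers among its top 10 genes. In it 7 of the 7 ependymal markers and 8 astrocyte markers were detected. Levels are given for the 15 classes that had 25 or more cells per library, as counts per 1000000 UMIs of the class (CPM), and ratios for the 8 that had 100 or more. Hilpda stood at 273 CPM in flox and 214 in cKO over all kept cells, at 500 and 274 CPM in monocyte or macrophage-like cells, and at 103 and 222 CPM in microglia-like cells. A 3′ tag outside the deleted part checks nothing about the genotype. With 1 library per group no test was possible, library preparation and group cannot be told apart, and all bracketed ranges are exact 95% intervals that cover counting error only. Where values stand in pairs, flox comes first. Levels are compared within a gene, across classes or libraries, since a 3′ count also depends on the transcript's end.

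Promoter windows from RefSeq (build GRCm38.p6, 250 bases before to 50 bases after an annotated start) were matched by symbol for 32 of the 40 genes. No window was matched for Acaa2, Decr1, Scd1, Scd2, Fads1, Sqle, Fdps and Fdft1. The letters CCAAT, on either strand, were present in 11 of the 11 cholesterol genes with a window, in 5 of 8 fatty acid synthesis genes and in 4 of 13 oxidation genes. Of all 27025 genes with a window, 41.1% held them, and of 32851 windows 37.4%. The sterol element TCACNCCAC, either strand, was found in Hmgcs1 (1.44% of all genes) and a direct repeat of AGGNCA with any 1 base between the copies (either strand), a form read by PPAR and RXR receptors, in Elovl1 (0.451% of all genes), and in none of the other members with a window. In other genes of the pathways, CCAAT was present in 11 of 16 with a window for cholesterol synthesis, 17 of 25 for oxidation and 11 of 24 for fatty acid synthesis. The 250 bases before the start are shown for 5 cholesterol genes whose levels were high in the oligodendrocyte lineage, and for Acadl, an oxidation gene that was also highest there and whose window lacks CCAAT. Each reads 5′ to 3′ on the gene's strand, and capitals mark CCAAT, its complement ATTGG and, in Hmgcs1, the sterol element TCACCCCAC at 137 to 129 bases before the start, which overlaps none of its CCAAT matches. A match describes the letters and shows no binding.
Hmgcs1: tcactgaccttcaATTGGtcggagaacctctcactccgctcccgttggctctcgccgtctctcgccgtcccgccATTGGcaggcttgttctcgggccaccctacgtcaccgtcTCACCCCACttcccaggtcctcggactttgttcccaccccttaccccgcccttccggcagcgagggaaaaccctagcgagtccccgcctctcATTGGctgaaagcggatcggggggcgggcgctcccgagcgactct
Idi1: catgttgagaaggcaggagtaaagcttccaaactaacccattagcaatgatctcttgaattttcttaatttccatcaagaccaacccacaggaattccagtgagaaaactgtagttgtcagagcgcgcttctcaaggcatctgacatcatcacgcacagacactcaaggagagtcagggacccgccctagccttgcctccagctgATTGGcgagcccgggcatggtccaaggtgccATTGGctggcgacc
Cyp51: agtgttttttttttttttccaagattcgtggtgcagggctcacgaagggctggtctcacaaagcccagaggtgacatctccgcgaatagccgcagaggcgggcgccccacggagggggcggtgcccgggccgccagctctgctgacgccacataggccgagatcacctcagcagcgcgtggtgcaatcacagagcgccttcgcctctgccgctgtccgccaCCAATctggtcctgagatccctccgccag
Msmo1: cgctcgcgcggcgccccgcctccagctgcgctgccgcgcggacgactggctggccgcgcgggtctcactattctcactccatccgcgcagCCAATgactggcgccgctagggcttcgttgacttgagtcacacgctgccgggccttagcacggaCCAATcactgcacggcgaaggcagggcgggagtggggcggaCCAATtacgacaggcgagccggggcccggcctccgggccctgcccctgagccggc
Dhcr7: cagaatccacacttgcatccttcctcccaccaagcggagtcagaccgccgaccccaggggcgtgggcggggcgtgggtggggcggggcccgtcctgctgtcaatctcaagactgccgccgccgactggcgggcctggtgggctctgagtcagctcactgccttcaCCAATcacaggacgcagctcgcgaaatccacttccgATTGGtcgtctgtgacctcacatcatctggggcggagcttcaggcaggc
Acadl: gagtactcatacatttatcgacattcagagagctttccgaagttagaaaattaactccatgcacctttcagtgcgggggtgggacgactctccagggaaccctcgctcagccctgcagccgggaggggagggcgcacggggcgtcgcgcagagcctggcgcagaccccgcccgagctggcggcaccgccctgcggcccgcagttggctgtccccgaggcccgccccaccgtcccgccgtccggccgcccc
These lie at chr13:119690101-119690350 (plus strand) for Hmgcs1, chr13:8885356-8885605 (plus strand) for Idi1, chr5:4104698-4104947 (minus strand) for Cyp51, chr8:64733579-64733828 (minus strand) for Msmo1, chr7:143829964-143830213 (plus strand) for Dhcr7 and chr1:66863310-66863559 (minus strand) for Acadl. Dhcr7 has 3 annotated starts, and only the window of the one shown holds CCAAT.

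Fatty acid oxidation was highest in another class than the synthesis pathways. Summed over its 15 genes, fatty acid oxidation was highest in choroid plexus epithelial cell-like cells (1944 CPM in flox and 2108 in cKO), followed by astrocyte-like (1622 and 1513.5 CPM), then oligodendrocyte-like cells (1522 and 1478 CPM). It was lowest in neuroblast-like cells (493 and 479 CPM). Fatty acid synthesis spanned a wider range, from 3576 CPM in flox and 3284 in cKO in oligodendrocyte-like cells to 291 and 217 CPM in neutrophil-like cells. Scd2 alone gave 2628 and 2436 CPM of the oligodendrocyte-like sum. In astrocyte-like cells Scd2 gave 1373 and 1292 CPM of a sum of 2792 and 2603 CPM. Without Scd2, astrocyte-like cells thus stood above oligodendrocyte-like cells in both libraries. Cholesterol synthesis was also highest in oligodendrocyte-like cells (1817 and 1761 CPM), above precursor-like (1417.5 and 1044 CPM), neuroblast-like (1208 and 1244 CPM) and astrocyte-like cells (1099 and 1395 CPM). The most numerous cells of the infarct stood at or near the bottom for cholesterol synthesis, with 203 and 202 CPM in monocyte or macrophage-like and 216 and 203 CPM in microglia-like cells. Their oxidation sums lay closer to those of the other classes, at 923 and 967 CPM in the first and 937 and 1049.6 CPM in the second.

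**Figure D1:**
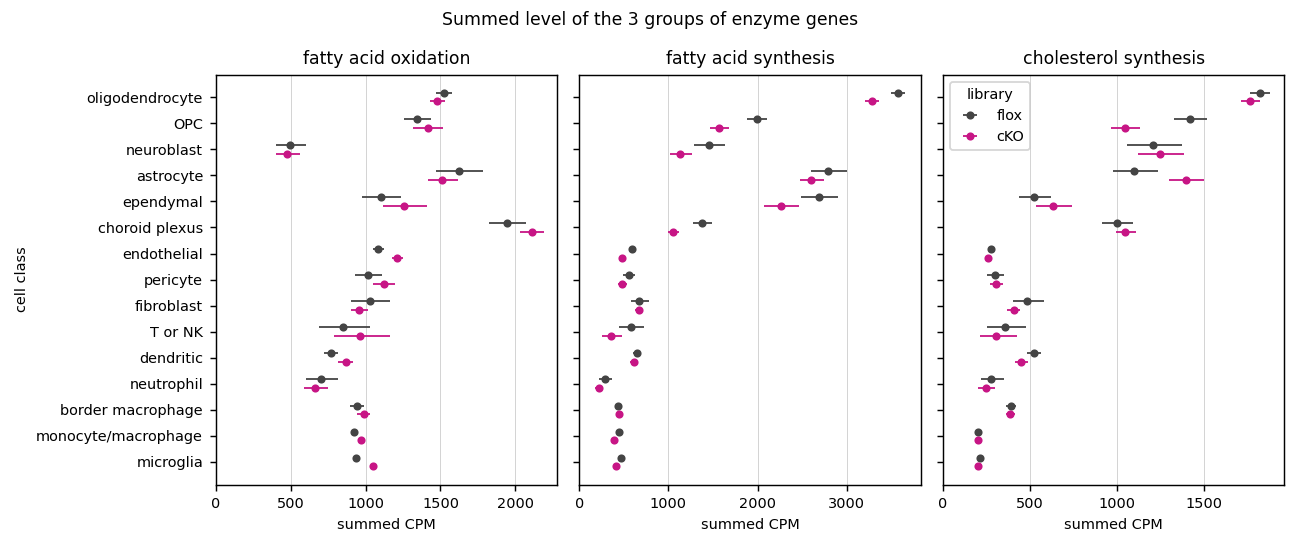
Summed CPM (horizontal axis) of the oxidation, fatty acid synthesis and cholesterol synthesis genes in 15 cell classes, with dots for the flox (grey) and cKO (pink) library and bars for the exact 95% counting interval. Oligodendrocyte-like cells are highest for both synthesis pathways and choroid plexus epithelial cell-like cells for oxidation, in both libraries. Scd2 alone gives 2628 of the 3576 CPM of fatty acid synthesis in oligodendrocyte-like cells of flox.

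The order of the classes was largely shared by the libraries. For 29 of the 40 genes the highest class was the same in flox and cKO, against 60.2% of the 13095 genes with at least 100 UMIs, and the median rank correlation between the libraries over 15 classes was 0.86. Oligodendrocyte-like cells were the highest class in both libraries for 10 of the 40 genes, which was true of 5.44% of all those genes. Choroid plexus epithelial cell-like cells were highest for 9 of the 40 genes (4.30% of all) and ependymal cell-like cells for 4 (5.89% of all).

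**Figure D2:**
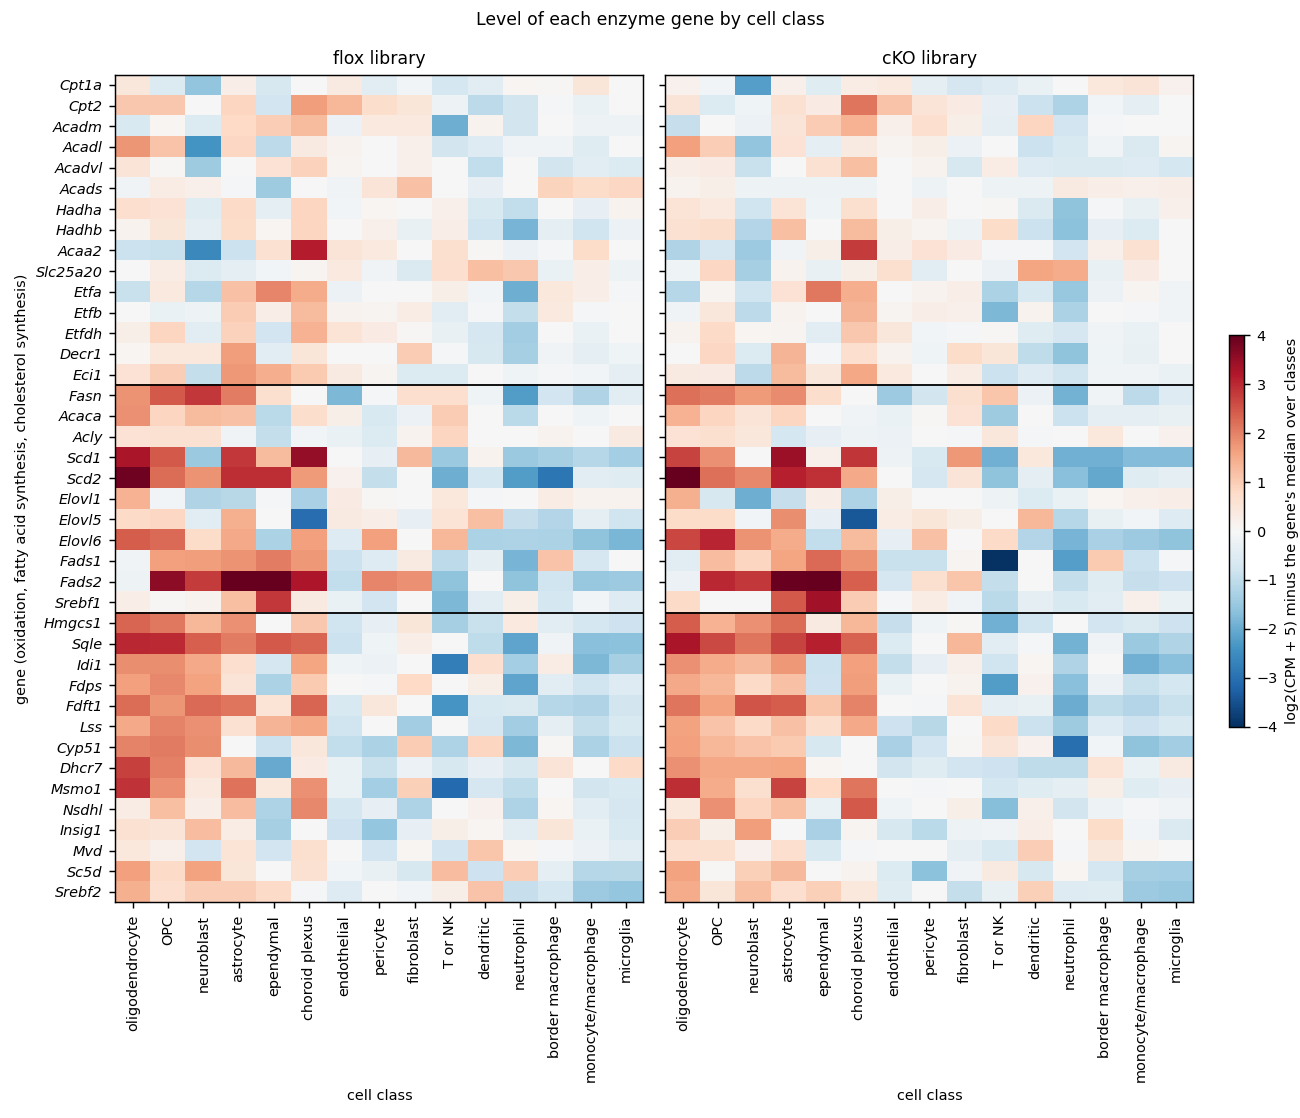
Level of each of the 40 genes (vertical axis) in 15 cell classes (horizontal axis) in the flox (left) and cKO (right) library, as log2(CPM + 5) minus the gene's own median over classes, red above and blue below that median. Most cholesterol genes are red in the oligodendrocyte, precursor, neuroblast and astrocyte-like columns. Most are blue in the monocyte or macrophage-like, microglia-like, endothelial cell-like and neutrophil-like columns.

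Within fatty acid oxidation, 2 of the 3 genes of the carnitine shuttle were highest in immune cells. Cpt1a, the gatekeeper of mitochondrial import, had its highest level in monocyte or macrophage-like cells, with 252 CPM [246 to 258] in flox and 254 CPM [248 to 259.9] in cKO, close to oligodendrocyte-like cells (247 and 202 CPM). Its lowest level was in neuroblast-like cells (56.5 and 34.9 CPM), and microglia-like cells stood at 177 and 199 CPM. Slc25a20, the carrier that exchanges acylcarnitine for carnitine, was highest in dendritic cell-like (97.7 and 136 CPM) and neutrophil-like cells (90.2 and 127 CPM), against 48.5 and 54.9 CPM in monocyte or macrophage-like cells. In contrast, Cpt2, which reforms acyl-CoA inside the mitochondrion, was highest in choroid plexus epithelial cell-like cells (43.8 and 72.3 CPM) and low in dendritic cell-like cells (2.40 and 4.59 CPM). The import genes thus had their highest levels in 3 different classes.

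The chain-shortening dehydrogenases were highest in different classes. Acadl, the long-chain acyl-CoA dehydrogenase, was highest in oligodendrocyte-like cells at 535 CPM [505 to 567] in flox and 526 CPM [496 to 556] in cKO, then in precursor-like cells at 348 and 331 CPM, and it stood at 109 and 109 CPM in monocyte or macrophage-like cells. Acadm, the medium-chain enzyme, was highest in choroid plexus epithelial cell-like cells (194 and 193 CPM) and low in oligodendrocyte-like cells (49.7 and 35.1 CPM). Acadvl, the very-long-chain enzyme of the inner membrane, was also highest in choroid plexus epithelial cell-like cells (97.9 and 134 CPM). Acads, the short-chain enzyme, was the exception in the set, since its cKO level was near 0 in every class, as described with the library comparison.

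Choroid plexus epithelial cell-like cells were the highest class for 8 of the 15 oxidation genes in both libraries. Of these, only Acaa2 had an interval clear of the next class in both libraries and Cpt2 in cKO, while those of the other 6 overlapped it. Hadha and Hadhb encode the subunits of the trifunctional protein that carries out the later steps on long chains, and lie side by side on chromosome 5 in opposite directions (chr5:30118304-30155162, minus strand, and chr5:30155248-30184593, plus strand). They stood at 306 CPM in flox and 310.0 in cKO, and at 189.6 and 228 CPM, in these cells. Their levels had the closest likeness of any pair in the set, with r = 0.90 over the 30 combinations of class and library. The values correlated were log2(CPM + 5) less the gene's mean over the classes of the same library. Acaa2, the mitochondrial thiolase of the last step, set this class apart most, with 256 CPM [213 to 306] in flox and 222 CPM [197 to 250.3] in cKO, where monocyte or macrophage-like cells stood at 45.0 and 44.3 CPM. Etfb and Etfdh, which pass the electrons of these dehydrogenases to the respiratory chain, were also highest there (37.5 and 40.2 CPM, and 142 and 129 CPM). Their partner Etfa was highest in ependymal cell-like cells (255 and 318 CPM). Decr1, the reductase needed for polyunsaturated chains, was highest in astrocyte-like cells (67.7 and 53.2 CPM), and Eci1, the isomerase for unsaturated chains, in astrocyte-like cells of flox (60.2 CPM) and choroid plexus epithelial cell-like cells of cKO (67.5 CPM).

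Choroid plexus epithelial cell-like cells were few (76 in flox and 160 in cKO) and had the highest mitochondrial share of UMIs, with medians of 19.2% and 15.97%. Among the 14 flox and 34 cKO cells of the class at or under 10% mitochondrial UMIs, the oxidation sum was 2071 and 2880 CPM, against 1944 and 2108 CPM in all its cells. When all cells were limited to 10% and clustered again, the number of members highest in the class of that name was 1 in place of 9. That class then held 167 and 202 cells, so most of them were not cells of the class described here. No pericyte-like or ependymal cell-like class then had enough cells to be measured. With equal weight per cell, 5 members were highest in choroid plexus epithelial cell-like cells.

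Among fatty acid synthesis genes, Scd2, the main stearoyl-CoA desaturase of brain, was highest in oligodendrocyte-like cells, at 2628 CPM [2560.1 to 2698] in flox and 2436 CPM [2372 to 2501] in cKO. It stood at 1373 and 1292 CPM in astrocyte-like cells, 126 and 101 CPM in monocyte or macrophage-like cells and 19.2 and 31.6 CPM in border-associated macrophage-like cells. These differences between classes far exceeded the counting intervals and were of the same order in both libraries. The summed level of 9 oligodendrocyte markers was 32500 and 35431 CPM in oligodendrocyte-like cells, against 106 and 113 CPM in monocyte or macrophage-like cells and 105 and 109 CPM in microglia-like cells; its part in the Scd2 level of the other classes was not tested.

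Elovl1 and Acaca were also highest in oligodendrocyte-like cells of both libraries, and the other genes of these steps were not. Elovl1, which makes very long saturated chains, stood there at 148 CPM in flox and 118 in cKO, and Acaca, which commits acetyl-CoA to the pathway, at 32.5 and 30.2 CPM. Elovl6, which lengthens palmitate, stood at 111 and 113 CPM in these cells, below precursor-like cells in cKO (147 CPM). Microglia-like cells had 1.06 and 1.05 CPM of Elovl6, the lowest of the 15 classes in flox. Fasn, the synthase itself, was highest in neuroblast-like cells of flox (164 CPM) and oligodendrocyte-like cells of cKO (80.6 CPM), and no UMI of it was seen in neutrophil-like cells. Acly, which supplies cytosolic acetyl-CoA, had its highest flox level in T or NK cell-like cells (140.0 and 96.5 CPM) and stood at 74.7 and 70.4 CPM in monocyte or macrophage-like cells.

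The genes of polyunsaturated chains had other leading classes. Fads1 and Fads2, the delta-5 and delta-6 desaturases, were highest in ependymal cell-like cells, at 319.6 CPM in flox and 368 in cKO, and at 396 and 226 CPM. Astrocyte-like cells were next for Fads2, at 365 and 144 CPM, with overlapping intervals in both libraries. For Fads1 they were next in flox (267 CPM), also with an overlapping interval. Fads2 was all but absent from phagocytes, with 10 and 3 UMIs in monocyte or macrophage-like and 15 and 8 UMIs in microglia-like cells, whereas Fads1 stood at 73.5 and 69.2 CPM in microglia-like cells. Elovl5, which lengthens polyunsaturated chains, was highest in astrocyte-like cells (331 and 399 CPM), with dendritic cell-like cells next in flox (284 and 270.1 CPM). Srebf1, the regulator, was highest in ependymal cell-like cells (324 and 293 CPM). Scd1, the desaturase known from liver and fat, was highest in choroid plexus epithelial cell-like cells of flox (154 and 132 CPM) and in astrocyte-like cells of cKO (94.1 and 197 CPM), and stood at 1.34 and 0.721 CPM in monocyte or macrophage-like cells.

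All 14 cholesterol genes stood above their own median over the 15 classes in oligodendrocyte-like and in precursor-like cells, in both libraries. In monocyte or macrophage-like and in microglia-like cells, 12 of the 14 stood below it in both libraries, the exceptions being Dhcr7 and Mvd. Border-associated macrophage-like cells had 7 of the 14 below it, endothelial cell-like cells 11, neutrophil-like cells 10 and pericyte-like cells 8. The share of all genes above or below their own median in each class was not counted, so these counts are descriptions. Hmgcs1, which makes HMG-CoA at the head of the pathway and carries the sterol element shown above, stood at 263 CPM [242 to 286] in flox and 276 CPM [255 to 299] in cKO in oligodendrocyte-like cells and 27.6 and 29.7 CPM in monocyte or macrophage-like cells. Sqle, squalene epoxidase, stood at 169 CPM [152 to 187] in flox and 174 CPM [157 to 192] in cKO against 1.75 and 1.65 CPM. Msmo1, the C4 sterol methyl oxidase, stood at 317 CPM [294 to 342] in flox and 277 CPM [255 to 299] in cKO against 20.9 and 21.3 CPM. Oligodendrocyte-like cells were thus above monocyte or macrophage-like cells for each of these genes, with intervals that did not overlap in either library.

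Along the mevalonate part, Idi1, the isomerase of isopentenyl diphosphate, and Fdps, which makes farnesyl diphosphate, stood at 118 CPM in flox and 134 in cKO, and at 63.6 and 62.2 CPM, in oligodendrocyte-like cells. Precursor-like cells were as high (119 and 104 CPM for Idi1 and 76.9 and 53.8 CPM for Fdps). Mvd, the mevalonate decarboxylase, was sparse in all classes, with its highest level in dendritic cell-like cells (13.6 and 9.95 CPM). From squalene onwards, Fdft1, squalene synthase, stood at 117 and 124 CPM in oligodendrocyte-like cells and was as high in choroid plexus epithelial cell-like (123 and 110.0 CPM) and neuroblast-like cells (118 and 164 CPM). Lss, lanosterol synthase, stood at 32.5 and 35.9 CPM and Cyp51, the lanosterol demethylase, at 120.3 and 121 CPM, with precursor-like cells at 46.4 and 24.3 CPM and 127 and 97.1 CPM. For each of these 6 genes the interval of the highest class overlapped that of the next class, in both libraries.

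The last steps and the regulators were less uniform. Sc5d, the lathosterol desaturase, and Dhcr7, which makes cholesterol from 7-dehydrocholesterol, stood at 99.9 CPM in flox and 112 in cKO, and at 131 and 81.5 CPM, in oligodendrocyte-like cells. Nsdhl, which removes the C4 carbons with Msmo1 and lies on chromosome X, was highest in choroid plexus epithelial cell-like cells (77.1 and 83.5 CPM) and not in oligodendrocyte-like cells (21.4 and 16.7 CPM). Srebf2, the regulator of the pathway, was highest in oligodendrocyte-like cells (250.4 and 222 CPM), with dendritic cell-like cells at 203 and 150.0 CPM. Insig1, its sterol-dependent brake, was highest in neuroblast-like cells (169.6 and 196 CPM), and border-associated macrophage-like cells (97.8 and 101 CPM) stood above microglia-like cells (43.1 and 37.4 CPM).

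Across the 30 combinations of class and library, cholesterol genes were more alike among themselves than the genes of either fatty acid pathway. Their 91 pairs had a median Pearson r of 0.62, against 0.39 for the 105 pairs of oxidation genes and 0.32 for the 55 pairs of fatty acid synthesis genes. Between pathways, cholesterol and fatty acid synthesis genes had a median r of 0.50, cholesterol and oxidation genes 0.20, and oxidation and fatty acid synthesis genes 0.14. The closest cholesterol pairs were Lss with Sqle (0.89) and Fdft1 with Sqle (0.87), and Scd2 stood as close to Sqle (0.86). The points share libraries, class depth and class make-up, so these values are descriptions.

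Some of the 40 genes also differed between clusters of 1 class. The 40 genes were left out of the genes used for clustering, so their levels did not set the clusters. In oligodendrocyte-like cells, cluster 22 (61 flox and 53 cKO cells, with Cldn11, Apod, Mal, Fa2h and Mobp among its leading genes) was set against cluster 11 (281 and 294 cells, with Il33, Serpina3n, Cryab and Gpd1 among its leading genes). A gene was called apart when its ratio was at least 1.5-fold and its interval left out equal levels, here in both libraries. Of 35 members measured, 7 were higher in cluster 22 (6.78% of all 7358 genes measured) and 4 were lower (14.5% of all). The count of lower members was near the share over all genes.

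The members higher in cluster 22 were synthesis genes. Scd2 stood at 8416 against 1909 CPM in flox and 6969 against 1801 CPM in cKO, with log2 ratios of 2.14 [2.06 to 2.22] for flox and 1.95 [1.87 to 2.03] for cKO. Scd1 stood at 382 against 98.2 CPM in flox and 307 against 92.95 CPM in cKO, and Fasn at 176 against 64.8 CPM in flox and 164 against 69.0 CPM in cKO. Elovl6, Srebf1, Insig1 and Sc5d were the other 4, with log2 ratios between 0.86 and 1.66 over the libraries. The 4 lower members were oxidation genes, and the import step was among them. Cpt1a stood at 37.8 against 273 CPM in flox and 35.6 against 225 CPM in cKO, with log2 ratios of -2.85 [-3.99 to -1.92] for flox and -2.66 [-3.73 to -1.77] for cKO. Acadl stood at 101 against 589 CPM in flox and 96.2 against 586 CPM in cKO, and Slc25a20 at 4.202 against 44.4 CPM in flox and 7.13 against 41.0 CPM in cKO. Etfdh was the fourth, at 16.8 against 66.9 CPM in flox and 28.5 against 70.5 CPM in cKO. The Slc25a20 and Etfdh levels of cluster 22 rest on few UMIs, and their intervals were wide. The log2 ratios were -3.40 [-8.72 to -0.88] in flox and -2.52 [-5.59 to -0.62] in cKO for Slc25a20. For Etfdh they were -1.99 [-3.89 to -0.60] in flox and -1.31 [-2.54 to -0.29] in cKO. The high Acadl and Cpt1a levels of the class thus came from cluster 11 in both libraries. The median log2 ratio was -1.23 in flox and -0.79 in cKO over 12 oxidation genes, 0.91 and 0.87 over 10 fatty acid synthesis genes and -0.38 in both over all genes. The median depth was close in the pair of clusters, at 4430 UMIs in cluster 22 and 4928 in cluster 11.

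In microglia-like cells, cluster 2 (led by Cd5l, Lpl and Mmp12, with Igf1 and Spp1) was set against cluster 5 (led by Siglech, Slc2a5, Gpr34 and P2ry12). Of 34 members measured, 7 were higher in cluster 2 (15.8% of all genes) and 0 were lower (17.3% of all), by the same rule in both libraries, so the count of higher members was near the share over all genes. Of the 7, 6 were oxidation genes. Cpt1a stood at 217 against 86.8 CPM in flox and 213 against 117 CPM in cKO, Acadl at 169 against 67.1 CPM in flox and 187 against 80.8 CPM in cKO, and Etfa at 63.3 against 33.2 CPM in flox and 61.3 against 27.2 CPM in cKO. Cpt2, Acaa2 and Etfb were the other 3, and the seventh was the cholesterol gene Dhcr7 (33.5 against 15.8 CPM in flox and 28.4 against 15.4 CPM in cKO). The median ratio over 14 oxidation genes was 0.68 in flox and 1.02 in cKO, against 0.00 and 0.05 over all genes. Cluster 2 was deeper, at a median of 14911 UMIs against 4426, and the part of depth in the difference was not tested.

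In monocyte or macrophage-like cells, cluster 0 (led by Gpnmb, Thbs1 and Arg1) was set against cluster 6 (led by H2-Aa, H2-Ab1 and H2-Eb1, with Plac8, Ccr2 and Ly6c2). Of 34 members measured, 4 were higher in cluster 0 (7.7% of all genes) and 4 lower (10.9% of all), both near the shares over all genes. Acadl was the only member called in all 3 pairs of clusters. Scd2 was higher, at 154 against 54.1 CPM in flox and 114 against 49.8 CPM in cKO, as were Acadl, Decr1 and Dhcr7 with log2 ratios between 0.59 and 1.05. The lower members included the pathway's regulators, with Insig1 at 42.6 against 101 CPM in flox and 46.0 against 91.8 CPM in cKO and Srebf2 at 24.7 against 45.7 CPM in flox and 18.3 against 46.5 CPM in cKO. Cyp51 stood at 6.29 against 18.9 CPM in flox and 7.69 against 14.8 CPM in cKO, and Elovl5 was the fourth. Cluster 0 was again the deeper one, at a median of 10974 UMIs against 5206.

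**Figure D3:**
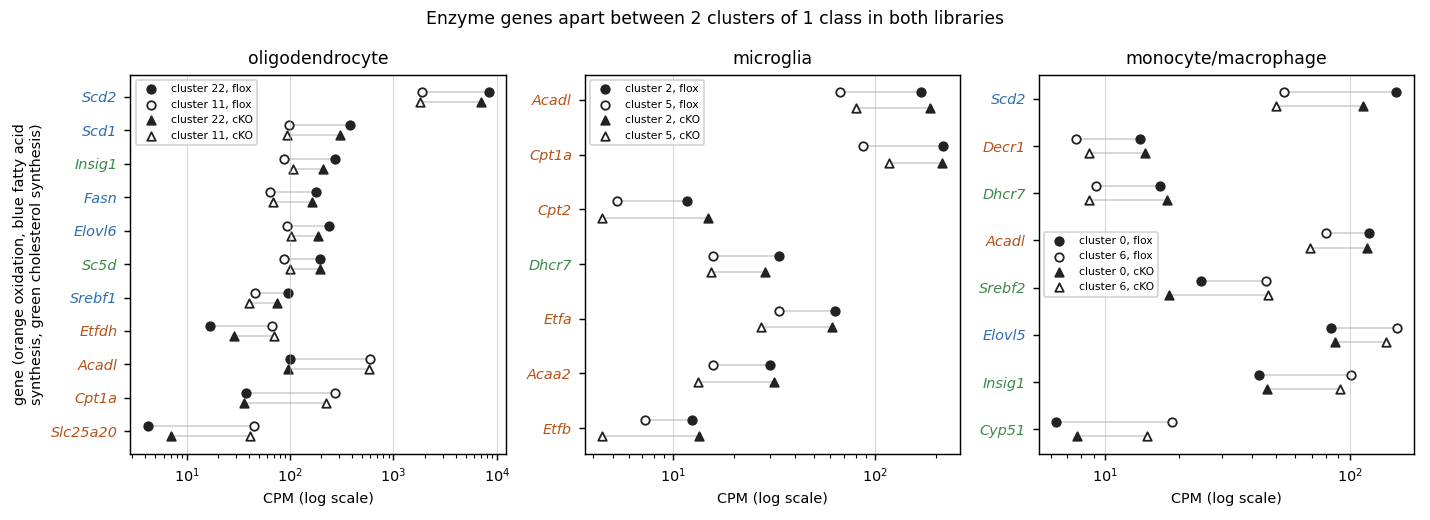
Levels (CPM, log axis) of the members called apart in both libraries between cluster 22 (filled) and 11 (open) of oligodendrocyte-like cells, 2 and 5 of microglia-like cells and 0 and 6 of monocyte or macrophage-like cells, with circles for flox and triangles for cKO. Scd2 is at the top for oligodendrocyte-like cells (8416 against 1909 CPM in flox), while the oxidation genes Cpt1a and Acadl lie lower in cluster 22 and higher in microglia-like cluster 2.

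Between the libraries, 23 of the 40 genes had no call in any class. Of 320 pairs of a member and a compared class, 249 had at least 30 UMIs and were measured, and 62.7% of these had a log2 ratio of cKO over flox within 0.3 of 0, near the 58.5% of all measured pairs of a gene and a class. By the same rule of 1.5-fold and an interval without 0, 8 pairs were higher and 12 lower in cKO, from 17 members. Over all genes, 3.64% of 66354 measured pairs were higher and 9.46% lower.

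Class by class, 0 to 3 members were called in either direction. In monocyte or macrophage-like cells, 0 of 39 measured members were higher (all genes 2.52%) and 2 lower (all genes 8.86%). In microglia-like cells, 3 of 38 were higher (2.86% of all genes) and 2 lower (9.92%). For endothelial cell-like cells the counts were 1 of 35 higher (3.11%) and 1 lower (13.2%). In oligodendrocyte-like cells, 0 of 38 were higher (3.58% of all genes) and 1 lower (9.07%), so the class with the highest synthesis sums held 1 call. Dendritic cell-like cells had 2 of 31 higher (3.24%) and 1 lower (8.54%). In neutrophil-like cells, where 10 members were measured, none was called higher (5.48%) or lower (7.42%). Border-associated macrophage-like cells had 2 of 34 higher (3.9%) and 3 lower (8.15%). Pericyte-like cells had 0 of 24 higher (7.19%) and 2 lower (8.26%).

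Acads had the lowest ratio of the set. This gene (chr5:115110299-115119346, minus strand) encodes the dehydrogenase that starts each round on short chains. Over all kept cells it gave 1050 UMIs in flox and 104 in cKO. In monocyte or macrophage-like cells it stood at 17.1 CPM [15.6 to 18.7] in flox and 1.58 CPM [1.16 to 2.11] in cKO, a log2 ratio of -3.44 [-3.91 to -2.998]. In microglia-like cells it stood at 18.6 and 1.96 CPM (-3.25 [-3.75 to -2.78]) and in border-associated macrophage-like cells at 19.8 and 1.92 CPM (-3.37 [-5.32 to -1.88]). Flox was above cKO in 14 of 15 classes, the ependymal cell-like class had 0 UMIs in both, and cKO had 0 UMIs in 7. The counting intervals did not overlap in 7 classes, and the ratio lay between -2.90 and -4.26 in each of the monocyte or macrophage-like and microglia-like clusters. A ratio at or under -3 was rare, with 24 genes (0.214%) in monocyte or macrophage-like, 30 (0.260%) in microglia-like and 28 (0.344%) in border-associated macrophage-like cells. The other dehydrogenases were not low alongside it, with ratios in monocyte or macrophage-like cells of 0.09 for Acadm, -0.00 for Acadl and 0.07 for Acadvl. The last 500 bases of its transcript have 59.2% GC, the highest of the 40 members, and the ratios less the median of genes with similar GC were -2.99 and -2.75 in monocyte or macrophage-like and microglia-like cells.

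Fads2 (chr19:10062765-10101746, minus strand) was the other member with a ratio under -2. It was measured in 1 compared class, pericyte-like cells, at 54.1 CPM [35.6 to 78.7] in flox and 9.95 CPM [4.29 to 19.6] in cKO, a log2 ratio of -2.44 [-3.79 to -1.26]. In the smaller classes it stood at 365 and 144 CPM in astrocyte-like, 181 and 72.8 CPM in precursor-like, 139.6 and 45.8 CPM in choroid plexus epithelial cell-like and 396 and 226 CPM in ependymal cell-like cells. Flox was above cKO in 13 of 15 classes, with 0 UMIs in both libraries in the remaining 2, and the intervals did not overlap in 6. Fads1, which lies nearby on chromosome 19, stood at 267 and 229 CPM in astrocyte-like and 254 and 264 CPM in choroid plexus epithelial cell-like cells. It stood at 239 and 179 CPM in precursor-like, 247 and 136 CPM in neuroblast-like, 50.1 and 37.3 CPM in pericyte-like and 319.6 and 368 CPM in ependymal cell-like cells. Flox was above cKO for it in 12 of 15 classes, with intervals that did not overlap in 1.

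Elovl1 (chr4:118428093-118432953, plus strand) was lower in cKO in all 15 classes and was the only member measured in 5 or more classes whose ratios all had 1 sign, as 1 of 34; over all genes measured in 5 or more classes, 12.5% were below 0 in every one and 7.63% above. It was called in dendritic cell-like cells (51.3 CPM in flox and 26.8 in cKO, -0.94 [-1.58 to -0.32]) and border-associated macrophage-like cells (67.8 and 43.1 CPM, -0.65 [-1.06 to -0.25]). The first of these calls was lost relative to the median ratio of the other classes (-0.55). The second was lost there (-0.27), with cells gated by their own markers (-0.35) and with equal weight per cell (-0.51). In monocyte or macrophage-like cells the difference was small but beyond counting error, at 59.4 and 48.1 CPM (-0.30 [-0.41 to -0.20]). Srebf1 was below 0 in 6 of 7 measured classes, with a median of -0.50 and no call. It stood at 37.7 and 28.4 CPM in monocyte or macrophage-like (-0.41 [-0.54 to -0.27]) and 27.3 and 19.3 CPM in microglia-like cells (-0.50 [-0.68 to -0.32]), while pericyte-like cells were higher in cKO (22.03 and 31.1 CPM).

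**Figure D4:**
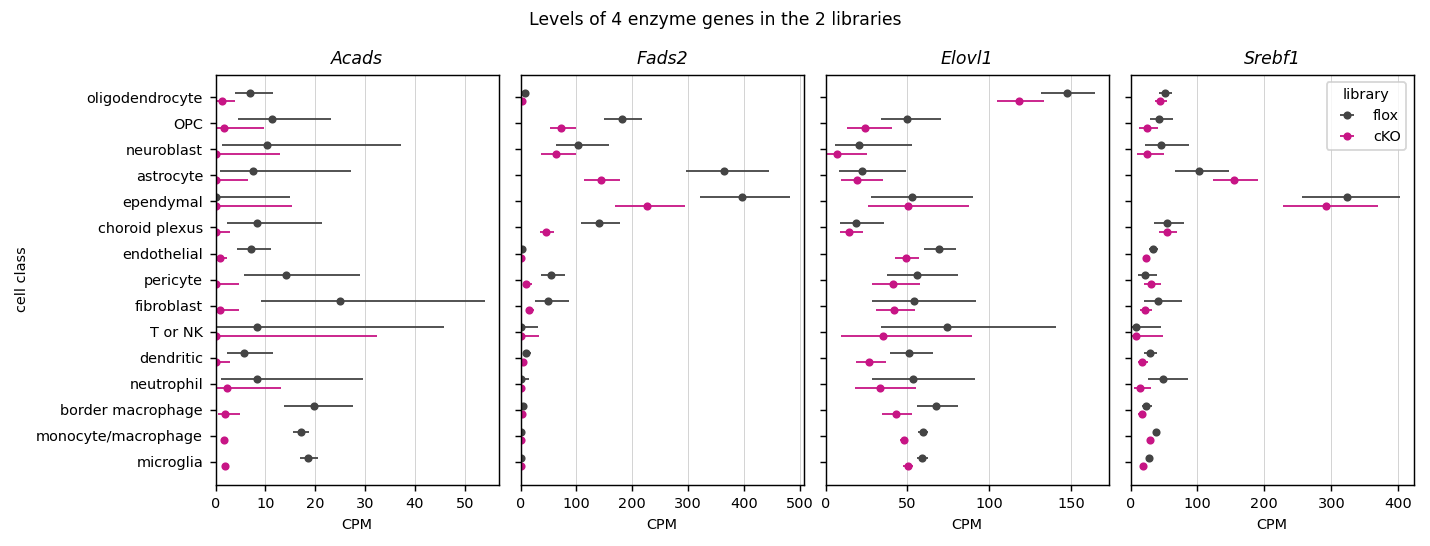
CPM of Acads, Fads2, Elovl1 and Srebf1 (horizontal axes) in 15 cell classes, with dots for the flox (grey) and cKO (pink) library and bars for the exact 95% counting interval. Acads is near 0 in cKO in every class, Fads2 is lower in cKO where it is abundant (365 against 144 CPM in astrocyte-like cells), and Elovl1 is lower in cKO in all 15 classes.

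The median ratio of each pathway, set beside that of all measured genes, gave small shifts. For oxidation genes it was 0.07 in monocyte or macrophage-like, 0.17 in microglia-like, 0.11 in endothelial cell-like and 0.21 in dendritic cell-like cells, where all genes had 0.01, -0.03, -0.11 and -0.05. In oligodendrocyte-like cells it was -0.11 (all genes -0.02). Of microglia-like cells, cluster 2, where oxidation genes were higher than in cluster 5, made up 29.9% in flox and 40.3% in cKO. Cluster 5 made up 30.1% and 16.2%. The part of these shares in the microglia-like median was not tested. The mean of the oxidation ratios, which includes Acads, was -0.13 and -0.04 in monocyte or macrophage-like and microglia-like cells, the other sign than the median. For fatty acid synthesis genes the median was -0.28, -0.18, -0.26, -0.12 and -0.12 in the same 5 classes, under that of all genes in each, and 0.21 in border-associated macrophage-like cells (all genes -0.01). Relative to the median ratio of the other classes, it was -0.05 in monocyte or macrophage-like and 0.09 in microglia-like cells. For cholesterol genes the medians lay between -0.09 in endothelial cell-like and 0.11 in pericyte-like cells among the classes with at least 5 measured members. The endothelial value was 0.05 with TMM scaling, which adds 0.14 to every ratio of that class, and 0.14 with the subtraction by GC.

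**Figure D5:**
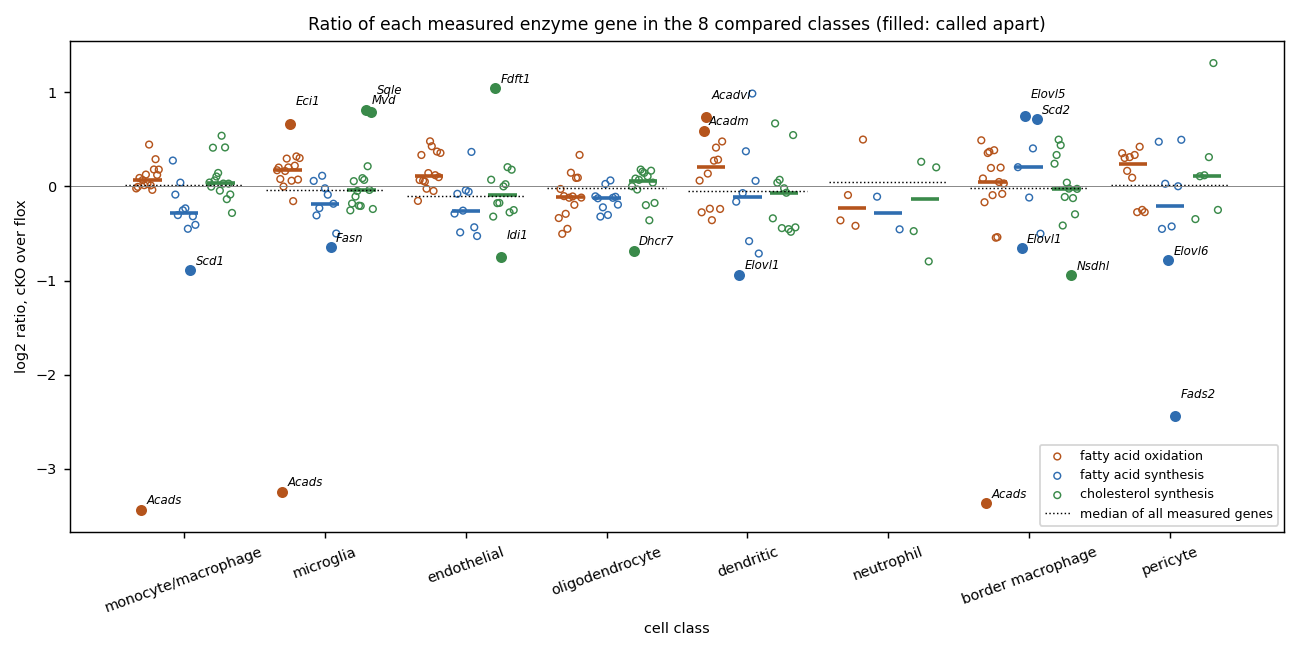
Log2 ratio of cKO over flox (vertical axis) of each measured member in the 8 compared classes, as circles (orange oxidation, blue fatty acid synthesis, green cholesterol synthesis), filled where called apart, with coloured lines for the median of each pathway and a dotted line for the median of all measured genes. Most circles lie within 0.3 of 0, and Acads (-3.44 in monocyte or macrophage-like cells) and Fads2 (-2.44 in pericyte-like cells) lie far below.

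The remaining calls were of smaller size and of both directions. Among oxidation genes, Eci1 was higher in cKO in microglia-like cells (9.84 CPM in flox and 15.7 in cKO, 0.67 [0.42 to 0.92]), and above 0 in 5 of the 6 classes where it was measured. Relative to the other classes its ratio was 0.28 and the call was lost. Within the microglia-like clusters its ratio was 0.62, 0.67 and 0.75 in clusters 2, 7 and 9, and -0.10 in cluster 5. Hadha was above 0 in 7 of 8 classes with a median of 0.29 and no call, for example 130.3 and 159 CPM in monocyte or macrophage-like cells (0.29 [0.23 to 0.35]). In dendritic cell-like cells, Acadm (87.3 and 132 CPM, 0.59 [0.24 to 0.95]) and Acadvl (22.4 and 37.5 CPM, 0.74 [0.04 to 1.47]) were higher in cKO. Acadm was called in 7 of 12 alternative settings, and its ratio was 0.31 with cells gated by their own markers, 0.51 relative to the other classes, 0.58 at resolution 0.5 and 0.39 with equal weight per cell, none of them called. Acadvl was called in 8 of 11, and not at resolution 0.5 (0.69) or relative to the other classes (0.68). Cpt1a, the import gene, had ratios between -0.29 and 0.37 in 8 classes and no call. Cluster 5 made up 30.1% of microglia-like cells in flox and 16.2% in cKO, and cluster 2 29.9% and 40.3%.

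Among fatty acid synthesis genes, Fasn was lower in cKO in microglia-like cells (12.4 CPM in flox and 7.92 in cKO, -0.65 [-0.93 to -0.37]), and below 0 within each of the 4 microglia-like clusters (-0.96 to -0.32). Scd1 was lower in monocyte or macrophage-like cells at a very low level (36 and 21 UMIs, -0.89 [-1.74 to -0.08]), and was called in 7 of 12 alternative settings. Elovl6 was lower in pericyte-like cells (62.1 and 36.1 CPM, -0.78 [-1.57 to -0.01]), with a call in 4 of 10 settings. These calls rest on few UMIs. Fasn was called in 10 of 13 settings, and not with gated cells (-0.55) or relative to the other classes (-0.46). In border-associated macrophage-like cells, Scd2 (19.2 and 31.6 CPM, 0.72 [0.10 to 1.36]) and Elovl5 (50.9 and 85.2 CPM, 0.74 [0.37 to 1.13]) were higher in cKO. With cells gated by their own markers the Scd2 ratio in that class was -0.32, the other direction, and that of Elovl5 was 0.20.

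Among cholesterol genes, the calls were of 1 or 2 genes in a class. In endothelial cell-like cells, Fdft1 was higher in cKO (11.8 CPM in flox and 24.3 in cKO, 1.04 [0.46 to 1.66]) and Idi1 lower (25.4 and 15.1 CPM, -0.75 [-1.27 to -0.23]). Each had the same direction within both endothelial clusters, at 0.94 and 1.11 for Fdft1 and -0.58 and -0.64 for Idi1, although cluster 8 held 58.3% of the class in flox and 81.9% in cKO. With equal weight per cell both calls were lost, at 0.56 for Fdft1 and -0.44 for Idi1. In oligodendrocyte-like cells, Dhcr7 was lower in cKO (131 CPM in flox and 81.5 in cKO, -0.68 [-0.96 to -0.41]), and lower in cluster 11 (-0.65) and in cluster 22 (-0.94). Sqle (41 and 66 UMIs, 0.79 [0.21 to 1.39]) and Mvd (33 and 54 UMIs, 0.82 [0.17 to 1.49]) were higher in microglia-like cells, at low counts. Nsdhl was lower in border-associated macrophage-like cells (17.5 and 9.10 CPM, -0.95 [-1.85 to -0.08]), but the call was lost with gated cells, where the ratio was -0.14, and relative to the other classes (-0.81). Srebf2 was below 0 in 7 of 8 classes with a median of -0.24 and no call, while Hmgcs1, with 4 of 8 below 0 and a median of 0.01, and Insig1 with a median of 0.02 were centred on 0.

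Genes of the same pathways outside the set were taken from lists of 32 oxidation, 26 fatty acid synthesis and 20 cholesterol genes found among the features. In monocyte or macrophage-like cells, 3 of 26 measured oxidation genes, 3 of 19 synthesis genes and 0 of 20 cholesterol genes were lower (all genes 8.86%), and 0, 1 and 0 higher (all genes 2.52%). In microglia-like cells, 2 of 27, 2 of 19 and 0 of 20 were lower (9.92%), and 2, 1 and 0 higher (2.86%). In oligodendrocyte-like cells, 5 of 25, 2 of 15 and 0 of 20 were lower (9.07%), and 2, 1 and 2 higher (3.58%). In endothelial cell-like cells, 2 of 23, 2 of 18 and 1 of 20 were lower (13.2%) and 0, 2 and 0 higher (3.11%). With lists this short, 1 or 2 calls are near these shares. The same few genes accounted for much of the calls. Slc25a1, the carrier that exports citrate for fatty acid synthesis, stood at 40.8 CPM in flox and 14.04 in cKO in monocyte or macrophage-like cells (-1.54). Its ratio was -1.54 in microglia-like, -1.50 in endothelial cell-like, -1.62 in oligodendrocyte-like and -1.66 in border-associated macrophage-like cells. Acaa1a, a peroxisomal thiolase, was lower in 4 classes (between -1.15 and -1.27), and Ppard, a receptor that drives oxidation genes, in 6 (between -0.78 and -1.26).

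In the other direction, Mid1ip1, which promotes polymerisation of acetyl-CoA carboxylase, was higher in 4 classes, for example at 103 CPM in flox and 188 in cKO in microglia-like cells (0.86). Hsd17b7, a 3-ketosteroid reductase of cholesterol synthesis, was higher in oligodendrocyte-like cells (91.1 CPM in flox and 161 in cKO, 0.82), the class in which Dhcr7 was lower. Nr1h2, a sterol-activated receptor, was lower in dendritic cell-like (-0.91) and border-associated macrophage-like cells (-0.90). In border-associated macrophage-like cells, 3 of 19 cholesterol genes were higher (all genes 3.9%) and 0 lower (all genes 8.15%). Among the higher ones was Mylip, a ubiquitin ligase (0.63), and the oxidation isomerase Eci2 was also higher (0.62). Single further calls were Cpt1c in oligodendrocyte-like (0.63), Acad10 in microglia-like (0.92), Hacd1 in endothelial cell-like (0.91), Tecr in pericyte-like (0.67) and Mbtps1 in dendritic cell-like cells (0.71), all higher, and Nus1 lower in the last (-0.62).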

How the data were processed

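The authors deposited UMI counts, as unnormalized whole numbers for each gene and barcode. Per the submitters' processing notes, CASAVA 1.8, STARsolo and Seurat were used with the build mm10. The annotation, the counter's settings and how cells were called are not given in the sources. Cells with at least 500 UMIs, 200 genes and at most 25% mitochondrial UMIs were kept, and doublets marked by Scrublet in scanpy 1.11.5 (210 flox, 142 cKO, at an expected rate of 6%) were left out. Both libraries were clustered together without integration, on 2000 variable genes without the 40 members, 30 principal components and Leiden resolution 1. Clusters were named "-like" from markers. Thresholds of that naming were set after the clusters were seen.

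UMIs were summed per class and library and given as CPM with exact Poisson intervals. Log2 ratios of cKO over flox have exact conditional intervals at 95%. A gene was measured in a class with at least 30 UMIs over both libraries, and called apart at 1.5-fold with an interval that left out 0. Likeness used log2(CPM + 5) less the gene's mean over the classes of the same library. Coordinates and 3′ GC of the last 500 bases came from GENCODE vM21 (GRCm38). Ratios, calls and intervals were checked on counts simulated for microglia-like and oligodendrocyte-like cells. The naming of the classes was not checked in this way. No test was made with 1 library per group, and nothing in the labels says how many animals gave each.

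All 40 members were described. From the other pathway lists, at most the 3 highest and 3 lowest ratios among called genes with at least 100 UMIs were named per class. The members and lists were chosen with earlier results of these data known. The cluster pairs were chosen after the clusters were seen. Alternatives were scaling by TMM (edgeR 4.0.16), UMI minimums of 10 and 100, a 2-fold rule, doublets kept, at most 10% mitochondrial UMIs, equal weight per cell, gating by markers, resolutions 0.5 and 2, the ratio minus that of the other classes, taking off the median ratio of genes in the same of 10 GC bins and, chosen after the data were seen, leaving out barcodes found in both libraries.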

Additional observations from a re-analysis of the deposited data

How the results depend on the processing

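No paired analysis was possible because each group is 1 library. Of the recomputed values that answer a comparison, 273 counted as unmoved and 11 as moved. A count was unmoved within 1.5 times its value. A pathway median was unmoved within the median half-width of the intervals of its single genes. That is the width for 1 gene and not for a median. A median could thus change sign and count as unmoved, as for cholesterol genes in endothelial cell-like cells with TMM scaling. The number of member and class pairs lower in cKO was 12 of 249 as reported (9.455% of all pairs of a gene and a class). It was 6 of 179 with at least 100 UMIs (8.56% of all), 4 of 249 at 2-fold (5.45%) and 7 of 227 with cells gated by their own markers (9.66%). With equal weight per cell it was 22 of 249 (11.9%), and after subtraction of the other classes 5 of 242 (3.02%). The number higher, 8 as reported (3.635%), was 1 at 2-fold (1.22%) and 15 with equal weight (6.23%). The share over all genes thus moved with the setting too. The median ratio of fatty acid synthesis genes after subtraction of the other classes was -0.054 in monocyte or macrophage-like cells, against -0.28, and 0.088 in microglia-like cells, against -0.18. Members highest in choroid plexus epithelial cell-like cells numbered 1 with at most 10% mitochondrial UMIs and 5 with equal weight, against 9. Under the 10% limit the class of that name held 167 flox and 202 cKO cells. Only 14 and 34 cells of the main class met that limit, so the count of 1 describes largely other cells. The cause was not tested. Of single genes, 1 reversed, Scd2 in border-associated macrophage-like cells with gated cells (-0.32). Of the alternatives that gave a value, Acads was called in 12 of 12 in monocyte or macrophage-like and 12 of 12 in microglia-like cells. It was called in 11 of 11 in border-associated macrophage-like cells, and Fads2 in pericyte-like cells in 9 of 9. Relative to the other classes neither gene had a value, since too few other classes were measured, so that setting checks neither. With at least 100 UMIs, Acads in border-associated macrophage-like cells and Fads2 also had none. Where a class had too few cells, no value was run: dendritic cell-like with doublets kept, and pericyte-like with at most 10% mitochondrial UMIs or gated cells. Depth limits the sparse genes most, since 71 of 320 pairs had under 30 UMIs.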
